A study of Mus musculus with 18 samples.

Results

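The inguinal subcutaneous pad (sWAT) of female mice holds the mammary gland, and 35 genes of mammary epithelium were followed through fat pads of mice kept at 6 or 28°C. The genes had been listed by name: milk protein genes, genes of the luminal layer, genes of the basal layer and genes that both layers use. Each was read from 1 probe set, that with the highest mean over all arrays where several named the gene. A probe set was found for 33 of the 35, of 18193 genes with a probe set in all, and Prlr and Areg were not analysed here. The 33 comprised 8 milk protein genes, 10 luminal genes, 2 basal genes and 13 genes shared by the epithelial layers.

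RNA was measured on 18 Affymetrix arrays, from female mice of the strain Sv129, 10 wk of age, that had spent 10 days at 6 or 28°C. The 6 groups were sWAT at 6°C, sWAT at 28°C, mesenteric WAT (mWAT) at 6°C, mWAT at 28°C, interscapular BAT at 6°C and BAT at 28°C, with 3 arrays in each. The estrous stage and breeding history of the mice were not given in the sources used here, and no label tells which arrays came from the same mouse. The labels call the arrays of a group separate samples and the methods call them biological replicates. For most arrays the tissue or the temperature listed among the characteristics contradicts the title, source name and description, which name the same group, and the groups follow these.

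Some arrays stood apart in genes of other tissues. The mean of 6 exocrine pancreas genes was 14.05 in mWAT array 2 at 6°C, 10.15 in mWAT array 1 at 28°C and 10.70 in BAT array 3 at 6°C, and at most 6.71 in the others. The mean of 8 skeletal muscle genes ranged from 6.11 to 12.62 in sWAT and 7.97 to 13.18 in BAT. That of 6 lymphocyte genes was 7.37 and 7.44 in mWAT array 3 at 6 and 28°C, against 11.44 to 11.63 in the other mWAT arrays.

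Mammary epithelium forms branching ducts inside the subcutaneous fat, with an inner luminal layer, which makes milk and carries the receptors for estrogen and progesterone, and an outer basal layer, which holds contractile cells. Prolactin acts on luminal cells through the transcription factor STAT5, which with ELF5 drives the casein genes in pregnancy and lactation. The caseins are the main proteins of mouse milk, and their genes lie in a cluster on chromosome 5.

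The stretches before the start sites of Csn1s1, Csn2 and Csn1s2a are shown because these 3 casein genes had the largest differences between temperatures of all members, with their highest values in the same arrays. They come from RefSeq (GRCm38.p6) and run 5′ to 3′ over the 250 bases before the start site, with the STAT5 motif TTCNNNGAA in capitals.
Csn1s1, chr5:87665958-87666207, plus strand: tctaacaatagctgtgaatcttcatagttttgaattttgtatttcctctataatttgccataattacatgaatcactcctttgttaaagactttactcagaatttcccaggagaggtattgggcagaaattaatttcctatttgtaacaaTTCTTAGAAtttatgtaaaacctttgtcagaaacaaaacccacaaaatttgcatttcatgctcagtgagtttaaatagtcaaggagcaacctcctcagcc
Csn2, chr5:87699426-87699675, minus strand: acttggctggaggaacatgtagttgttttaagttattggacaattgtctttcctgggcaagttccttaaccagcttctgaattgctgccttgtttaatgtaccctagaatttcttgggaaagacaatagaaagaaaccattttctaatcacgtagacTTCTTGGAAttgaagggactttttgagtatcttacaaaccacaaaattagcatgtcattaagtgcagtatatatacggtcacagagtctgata
Csn1s2a, chr5:87774200-87774449, plus strand: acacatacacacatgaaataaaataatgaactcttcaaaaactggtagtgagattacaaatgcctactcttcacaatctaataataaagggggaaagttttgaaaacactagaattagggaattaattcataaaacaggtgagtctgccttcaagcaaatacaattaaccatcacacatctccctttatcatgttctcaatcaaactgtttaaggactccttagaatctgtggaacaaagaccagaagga
The motif, which reads the same on both strands, began 100 bases before the start site of Csn1s1 and 93 bases before that of Csn2, and these letters were not in the window of Csn1s2a. Promoters were found for 24 of the 35 members. Of their 30 promoters 5 (16.7%) held the motif, those of Csn1s1, Csn2, Cldn7, Esr1 and Prlr, and 7.02% of all 32851 mouse promoters of the same length held it. The AP-2 motif GCCNNNGGC, also the same on both strands, was in 5 of the 30 promoters (Esr1, Krt18, Krt7, Lalba and Spint1) and in 13.7% of all promoters, and it overlapped the STAT5 motif in 0 of the 30. A match describes the letters and is not evidence of binding.

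Values below are log2 intensities, and a change of 1 is a 2-fold change. A level of a probe set can be set against the same probe set in other arrays but not against another gene. Changes are given ± SE from 1 limma fit of all 18 arrays, and a gene was called where its adjusted p, over 45037 probe sets, was below 0.01. Since whole pads were measured, fewer epithelial cells and less RNA per cell cannot be told apart.

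Cold lowered 1 of the 33 genes past the threshold in sWAT, Csn1s2b, a casein of the alpha-S2 type, and raised 0. It measured 3.87, 3.23 and 3.35 at 6°C and 4.76, 6.05 and 5.12 at 28°C, a change of -1.83 ± 0.29 (3.55-fold lower, adjusted p = 0.00544). All 3 arrays at 6°C lay below all 3 at 28°C. Of all genes 0.0220% were called lower in this comparison. In a fit of the sWAT arrays alone its adjusted p was 0.130. The call was also lost without any 1 of the 3 sWAT arrays at 6°C (adjusted p = 0.0124, 0.0297 and 0.0290 without arrays 1, 2 and 3), without sWAT array 2 at 28°C (0.0221) and without BAT arrays 1 or 2 at 6°C (0.0102 and 0.0104). The probe set was above the array median in 0 of the 18 arrays.

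The other members were not called with the probe set used for each, while a dimmer probe set of Btn1a1 was called lower. Of the 33 changes 28 were negative, and the median of the 33 was -0.56, against -0.0016 over all 18193 genes. By group the median change was -1.66 for the milk protein genes, -0.11 for the luminal genes, -0.71 for the basal pair and -0.56 for the shared genes. In 18 of the 33 every array at 6°C lay below every array at 28°C, which held for 8.66% of all genes. Esr1, the estrogen receptor, was the 1 member with every array at 6°C above those at 28°C. At an unadjusted p below 0.05 there were 9 of the 33, of which 6 were milk protein genes, and 14.2% of all genes had such a p. Members were chosen with earlier results of these data known and were read from the same arrays. These counts and medians are therefore a description and not an independent test.

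Csn2, the beta-casein gene, had the largest change. It measured 3.87, 4.22 and 4.50 at 6°C and 6.21, 13.65 and 10.13 at 28°C, a change of -5.80 ± 1.63 (adjusted p = 0.105). The arrays at 6°C lay close together, while those at 28°C spanned a far wider range, with array 2 highest. Csn1s1, alpha-S1-casein, had 4.23, 3.01 and 3.08 at 6°C and 3.99, 13.21 and 9.59 at 28°C, a change of -5.49 ± 1.79 (adjusted p = 0.17). Here array 1 at 28°C fell among the arrays at 6°C, so the groups overlapped. Csn1s2a, another alpha-S2-type casein, had 5.72, 5.15 and 4.97 at 6°C and 6.10, 13.80 and 9.61 at 28°C, a change of -4.55 ± 1.52 (adjusted p = 0.182). In each of these caseins arrays 2 and 3 at 28°C stood well above the other 4 sWAT arrays. Without array 2 at 28°C the changes of Csn2, Csn1s1 and Csn1s2a were -3.97, -3.35 and -2.57, and without array 1 they were -7.69, -7.96 and -6.42.

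Csn3, the kappa-casein gene that keeps casein micelles in solution, stayed high in every sWAT array. It measured 12.91, 12.79 and 12.79 at 6°C and 13.22, 13.37 and 13.40 at 28°C, a change of -0.50 ± 1.29 (adjusted p = 0.935). Its groups did not overlap in sWAT, while its SE was taken from a spread pooled over all 6 groups. In a fit of the sWAT arrays alone its adjusted p was 0.224. A dimmer probe set of Csn3 overlapped, with 6.74, 6.04 and 5.97 at 6°C and 7.03, 5.88 and 7.56 at 28°C. It changed by -0.57 ± 0.32 (adjusted p = 0.521), and its lowest sWAT value was in array 2 at 28°C. Btn1a1, butyrophilin of the milk fat globule membrane, had 9.67, 9.39 and 9.64 at 6°C and 10.24, 11.35 and 11.58 at 28°C, a change of -1.49 ± 0.48 (adjusted p = 0.167), also without overlap. A dimmer probe set of Btn1a1 passed the threshold, with means of 3.71 at 6°C and 4.71 at 28°C. It changed by -1.004 ± 0.144 (adjusted p = 0.00249), without overlap. The dimmest Btn1a1 probe set overlapped and was not called, with a change of -0.80 ± 0.33 (adjusted p = 0.328).

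Wap and Lalba, the genes of whey acidic protein and alpha-lactalbumin, had far smaller differences than Csn2, Csn1s1 and Csn1s2a. Wap had 4.67, 5.44 and 5.38 at 6°C and 4.73, 5.91 and 5.23 at 28°C, a change of -0.12 ± 0.31 (adjusted p = 0.934). Lalba had 5.63, 5.23 and 5.14 at 6°C and 5.61, 6.21 and 5.86 at 28°C, a change of -0.56 ± 0.24 (adjusted p = 0.353). Both overlapped between temperatures, and neither probe set was above the array median in any of the 18 arrays.

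**Figure D1:**
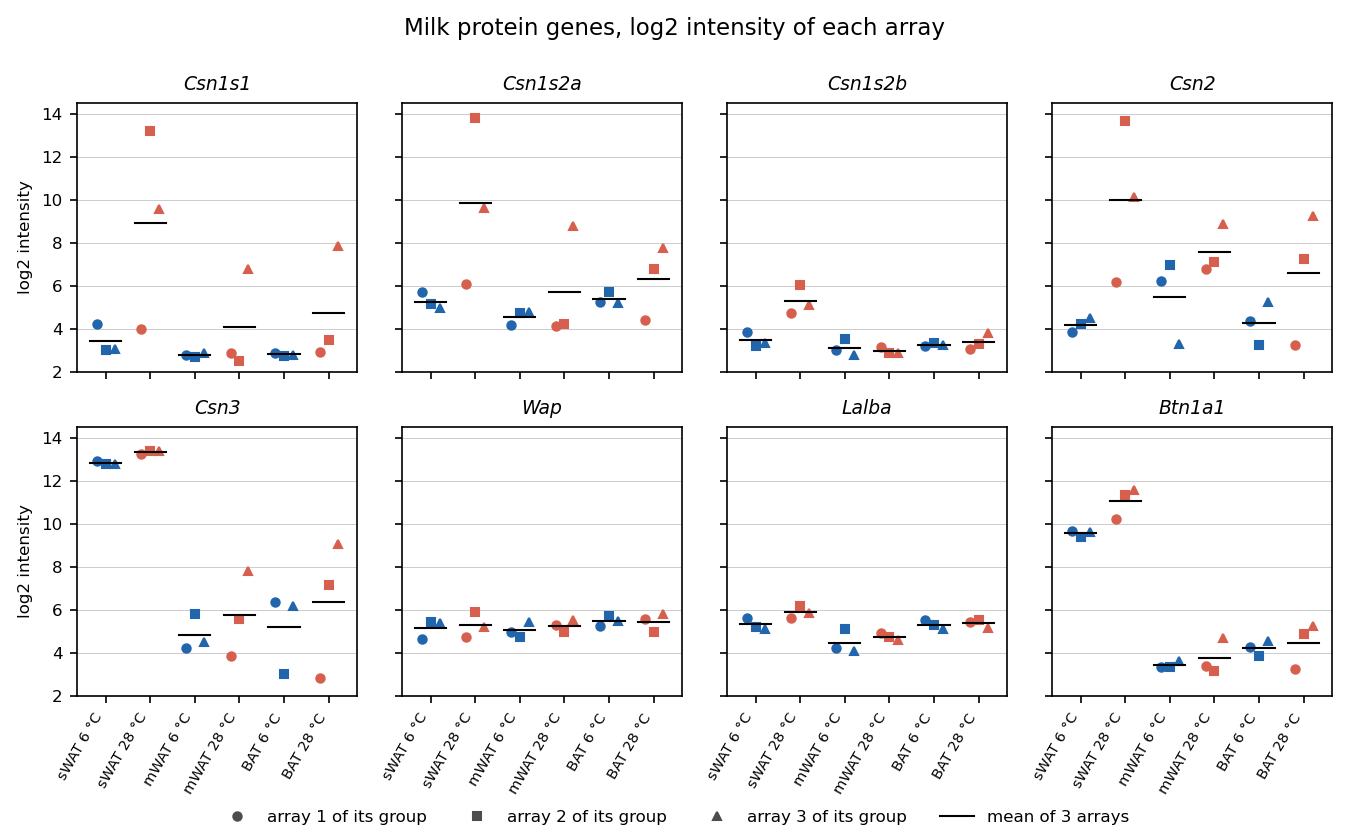
Log2 intensity (y axis) of the 8 milk protein genes in each array, by fat pad and temperature (x axis); points are arrays and bars are means of 3. Csn2 spans 3.87 to 4.50 in sWAT at 6°C and 6.21 to 13.65 at 28°C, while Csn3 stays between 12.79 and 13.40 in all 6 sWAT arrays.

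The casein genes form 1 cluster on chromosome 5, and 2 of the genes that RefSeq places between Csn1s2b and Csn3 have a probe set. Odam, which encodes an enamel protein, had 2.87, 3.16 and 2.78 at 6°C and 3.0, 2.81 and 2.97 at 28°C. Prr27 had 4.08, 4.41 and 3.94 at 6°C and 4.50, 3.84 and 3.70 at 28°C. Neither followed the caseins, with changes of 0.01 ± 0.21 for Odam (adjusted p = 0.992) and 0.13 ± 0.20 for Prr27 (adjusted p = 0.872).

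Of the 10 luminal genes 0 were called in sWAT, 6 changes were negative and 4 were positive. The keratins 8 and 18 pair in the filaments of simple epithelia. Krt8 had 11.90, 11.99 and 11.80 at 6°C and 12.59, 13.03 and 12.22 at 28°C, and Krt18 had 13.49, 13.53 and 13.38 at 6°C and 13.73, 13.55 and 13.63 at 28°C. Both had lower values in every array at 6°C, with changes of -0.72 ± 0.68 and -0.17 ± 0.73 (adjusted p = 0.755 and 0.963). Krt7 and Krt19, luminal keratins of ducts, overlapped between temperatures, with changes of -0.04 ± 0.36 and -0.32 ± 0.50 (adjusted p = 0.982 and 0.874).

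The ETS factors Ehf and Elf5 had the largest changes of the luminal members. Elf5, which acts with STAT5 in alveolar cells, had 9.73, 9.24 and 9.22 at 6°C and 9.80, 11.67 and 10.55 at 28°C, a change of -1.27 ± 0.48 (adjusted p = 0.264). Ehf had 10.25, 9.39 and 10.19 at 6°C and 10.27, 12.37 and 11.01 at 28°C, a change of -1.28 ± 1.20 (adjusted p = 0.754). In both the arrays at 6°C lay below those at 28°C, and array 2 at 28°C was highest. The related factor Elf3 had 7.24, 6.65 and 6.41 at 6°C and 6.27, 6.40 and 6.67 at 28°C and overlapped.

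Foxa1, Pgr and Esr1, members that mark hormone-sensing luminal cells, did not show the pattern of the caseins. Foxa1, which opens chromatin for the estrogen receptor, had 11.83, 11.37 and 11.40 at 6°C and 11.65, 11.13 and 11.70 at 28°C. Pgr, the progesterone receptor, had 10.99, 11.18 and 11.15 at 6°C and 11.58, 9.99 and 11.60 at 28°C. In both array 2 at 28°C was the lowest of the 6 arrays, the same array in which the caseins were highest. Esr1 had 11.95, 11.70 and 12.06 at 6°C and 11.35, 11.62 and 11.42 at 28°C, a change of 0.44 ± 0.22 (adjusted p = 0.449). The changes of Foxa1 and Pgr were 0.04 ± 0.54 and 0.05 ± 0.48 (adjusted p = 0.987 and 0.984), and without array 2 at 28°C they were -0.14 and -0.48.

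Both basal keratins had lower values at 6°C without overlap. Krt5 had 9.54, 9.40 and 9.0 at 6°C and 9.71, 10.34 and 9.68 at 28°C, a change of -0.60 ± 0.24 (adjusted p = 0.3). Krt14, its partner in filaments, had 9.96, 10.18 and 10.24 at 6°C and 10.55, 11.40 and 10.92 at 28°C, a change of -0.83 ± 0.42 (adjusted p = 0.455). Neither was called.

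**Figure D2:**
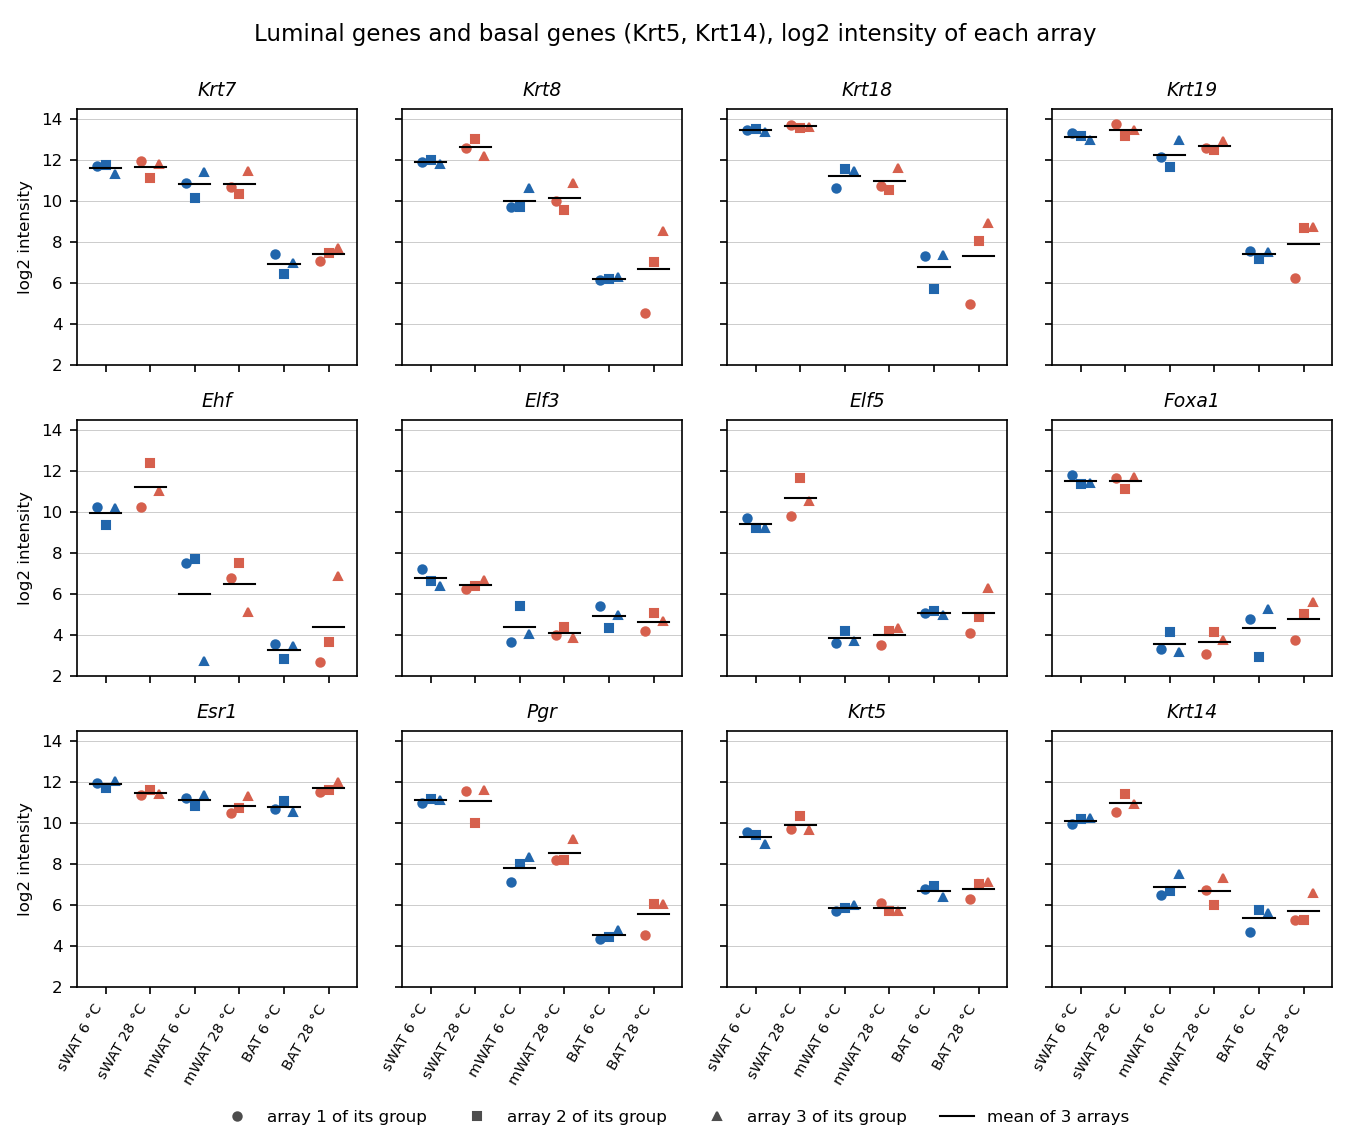
Log2 intensity (y axis) of the 10 luminal and 2 basal genes in each array, by fat pad and temperature (x axis); points are arrays and bars are means of 3. Foxa1 lies between 11.13 and 11.83 in sWAT and between 2.95 and 5.6 in the 12 arrays of the other pads, while Krt7 and Krt19 are also high in mWAT.

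Among the 13 genes that both layers use, 12 changes were negative and 0 were called. The adhesion molecule Epcam had 12.05, 11.89 and 11.72 at 6°C and 12.41, 12.91 and 12.41 at 28°C, a change of -0.69 ± 0.41 (adjusted p = 0.559). Cdh1, E-cadherin of adherens junctions, had 11.07, 11.28 and 11.27 at 6°C and 11.28, 11.89 and 11.45 at 28°C, a change of -0.34 ± 0.79 (adjusted p = 0.925). Both had every array at 6°C below those at 28°C.

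The claudins seal tight junctions and differed among themselves. Cldn7 had 10.38, 10.15 and 10.31 at 6°C and 10.77, 11.87 and 10.99 at 28°C, a change of -0.93 ± 0.70 (adjusted p = 0.67). Cldn3 had 9.96, 9.74 and 9.70 at 6°C and 9.77, 11.26 and 10.31 at 28°C, a change of -0.65 ± 0.44 (adjusted p = 0.631). Cldn4 had 7.75, 7.91 and 7.78 at 6°C and 7.86, 7.40 and 8.25 at 28°C, a change of -0.02 ± 0.20 (adjusted p = 0.985). Array 2 at 28°C was the highest of the sWAT arrays in Cldn3 and Cldn7 and the lowest in Cldn4.

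The AP-2 factors Tfap2a, Tfap2b and Tfap2c, which act in ectodermal epithelia, had differences of -0.53 ± 0.43, -0.52 ± 0.34 and -0.88 ± 0.60 (adjusted p = 0.701, 0.608 and 0.628). Tfap2c had 11.37, 10.97 and 11.06 at 6°C and 11.54, 12.55 and 11.95 at 28°C, with no overlap, while Tfap2a and Tfap2b overlapped. Grhl2, a factor that maintains epithelial junction genes, had 9.85, 9.65 and 9.81 at 6°C and 9.94, 10.57 and 10.49 at 28°C, a change of -0.56 ± 0.39 (adjusted p = 0.633). Trps1, a GATA-type repressor of luminal cells, had 11.62, 11.53 and 11.63 at 6°C and 11.97, 12.36 and 12.31 at 28°C, a change of -0.62 ± 0.24 (adjusted p = 0.277). Grhl2 and Trps1 also had every array at 6°C below those at 28°C.

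Spint1, an inhibitor of the membrane protease matriptase, had 9.87, 9.68 and 9.44 at 6°C and 9.84, 10.43 and 10.05 at 28°C, a change of -0.44 ± 0.57 (adjusted p = 0.835). Esrp1, a splicing regulator of epithelial cells, had 10.82, 10.62 and 10.76 at 6°C and 11.07, 12.09 and 11.47 at 28°C, a change of -0.81 ± 1.04 (adjusted p = 0.833). For its relative Esrp2 the 2 probe sets disagreed. The brighter one stayed between 11.48 and 12.18 in all 18 arrays, and the other had 8.48, 8.71 and 8.36 at 6°C and 8.63, 9.11 and 8.84 at 28°C in sWAT, a change of -0.34 ± 0.37 (adjusted p = 0.796).

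**Figure D3:**
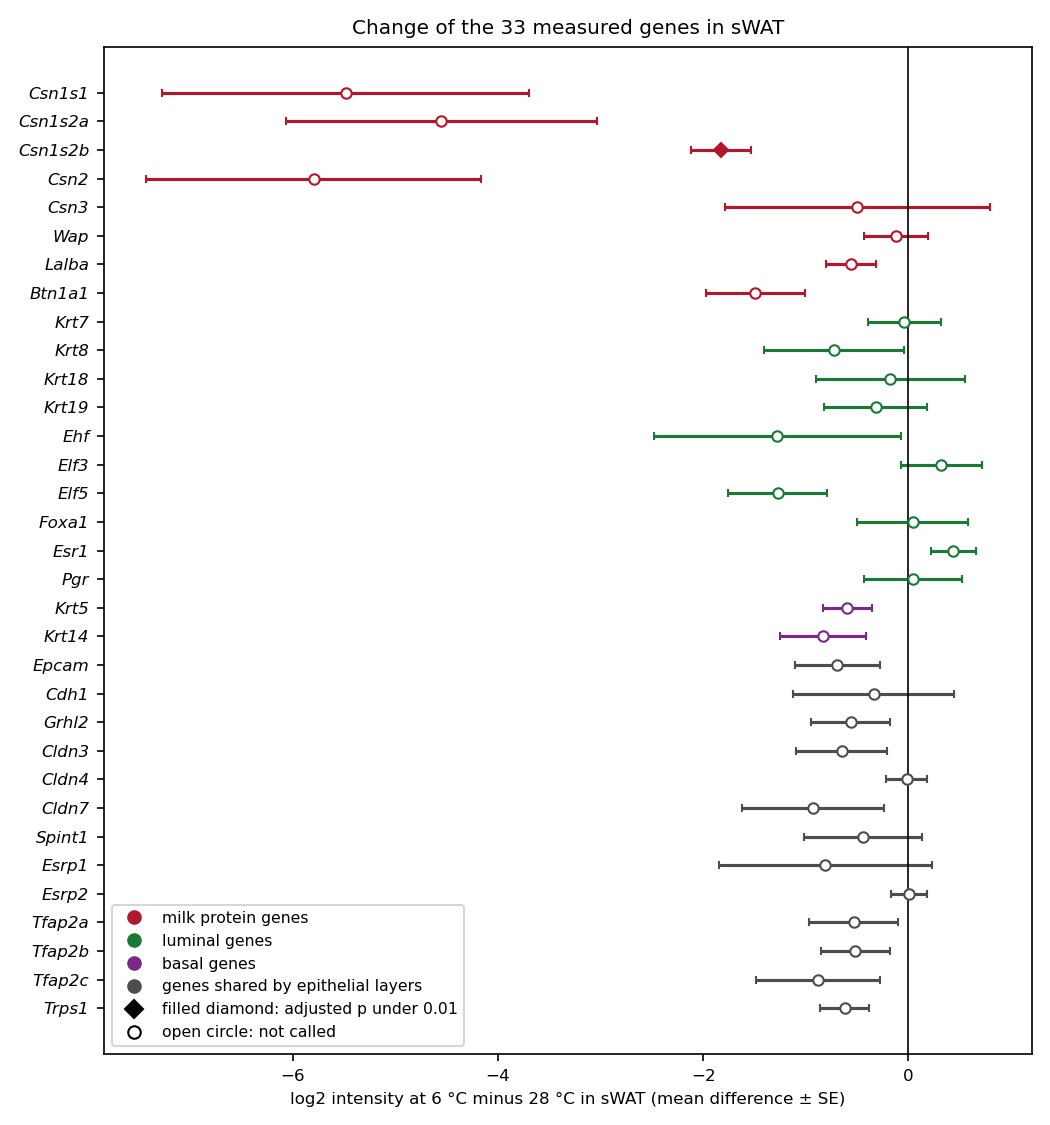
Mean log2 intensity at 6°C minus that at 28°C in sWAT, ± SE (x axis), for each of the 33 genes (y axis), coloured by group, with a filled diamond where the adjusted p was below 0.01. Csn1s2b is the 1 filled diamond, and Csn2, Csn1s1 and Csn1s2a lie farthest to the left, with the widest error bars.

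The arrays of sWAT at 28°C were less alike in these genes than those at 6°C. The SD between the 3 arrays was larger at 28°C than at 6°C in 31 of the 33 members (93.9%), with median SDs of 0.176 at 6°C and 0.428 at 28°C. Over all genes it was larger at 28°C in 53.2%, with medians of 0.188 at 6°C and 0.196 at 28°C. Csn1s1, Csn1s2a and Csn2 ranked 1, 3 and 5 of 18193 genes by their SD at 28°C. Among the 3 arrays at 28°C, array 2 was the highest in 23 of the 33 members and in 6 of the 8 milk protein genes, and array 1 was the highest in 0 milk protein genes. The same array 2 had a mean of 12.62 over 8 skeletal muscle genes, against 10.69 and 7.74 in arrays 1 and 3 at 28°C and 6.11, 11.74 and 7.51 in sWAT at 6°C. The part of muscle tissue in the values of this array was not tested.

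Raised casein values also occurred in array 3 of mWAT at 28°C and in arrays 2 and 3 of BAT at 28°C. In mWAT, Csn2 had 6.23, 7.0 and 3.31 at 6°C and 6.80, 7.14 and 8.87 at 28°C, and Csn1s1 had 2.79, 2.69 and 2.91 at 6°C and 2.92, 2.53 and 6.81 at 28°C. In BAT, Csn2 had 4.37, 3.27 and 5.27 at 6°C and 3.28, 7.24 and 9.25 at 28°C, and Csn1s1 had 2.91, 2.75 and 2.82 at 6°C and 2.95, 3.49 and 7.87 at 28°C. Array 3 at 28°C was the highest of its pad in each case, and BAT array 2 at 28°C came next. Csn3 followed, with 3.88, 5.57 and 7.79 in mWAT and 2.86, 7.18 and 9.06 in BAT at 28°C. In BAT at 28°C, Krt18 had 4.98, 8.04 and 8.93, again highest in array 3, and so was Epcam at 8.13. Not every epithelial member was highest there, with Spint1 at 5.90, 5.93 and 5.68 and Cldn4 at 3.75, 4.02 and 3.83. In mWAT at 28°C, Epcam had 7.71, 7.75 and 7.54 and Cdh1 had 5.50, 6.12 and 5.51, without a rise in array 3. The 13 shared genes averaged 6.13, 6.27 and 6.52 in mWAT and 5.94, 6.46 and 7.10 in BAT at 28°C. Skeletal muscle genes averaged 9.03, 13.18 and 12.79 in these 3 BAT arrays and 7.06, 7.91 and 7.32 in those of mWAT. Whether other tissue was collected with these pads was not tested.

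In BAT cold lowered 1 of the 33 genes past the threshold, Trps1, which had 8.96, 9.37 and 8.63 at 6°C and 10.41, 10.66 and 10.16 at 28°C, a change of -1.42 ± 0.24 (adjusted p = 0.00153). All genes were called lower in 2.53% of cases, so 1 of 33 is near the background. The call was lost without BAT array 3 at 6°C or array 2 at 28°C. Esr1 in BAT had 10.70, 11.10 and 10.55 at 6°C and 11.50, 11.60 and 12.03 at 28°C, a change of -0.93 ± 0.22 (adjusted p = 0.013), opposite in sign to its change in sWAT.

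In mWAT 0 of the 33 genes were called, 1 had an unadjusted p below 0.05 (4.60% of all genes), and 0.00550% of all genes were called. The cold response of sWAT minus that of mWAT was called in 0 of 33 members (1 at an unadjusted p below 0.05, against 5.63% of all genes) and in 0% of all genes. The cold response of sWAT minus that of BAT was called in 0 of 33 (3 at an unadjusted p below 0.05, against 14.9% of all genes) and in 0.467% of all genes. For Csn1s2b this difference was -1.98 ± 0.42 against mWAT (adjusted p = 0.31) and -1.71 ± 0.42 against BAT (adjusted p = 0.0529). For Esr1 it was 1.37 ± 0.31 against BAT (adjusted p = 0.0405). No member passed the threshold for a cold response that differed between sWAT and mWAT or between sWAT and BAT.

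The epithelial genes set sWAT apart from both other pads, and of the defining markers Epcam, Cdh1, Krt5 and Krt14 were called higher in sWAT in all 4 comparisons, while Krt8 and Krt18 were called against BAT alone. The call of Cdh1 against mWAT at 6°C was lost without mWAT array 1 at 6°C. Without BAT array 1 at 28°C, Krt8 and Krt18 were called against mWAT as well, at both temperatures. At 6°C, 18 of the 33 members were higher in sWAT than in mWAT, with a background of 5.17% of all genes, and 26 were higher than in BAT, with a background of 13.4%. At 28°C, 21 were higher than in mWAT (background 3.05%) and 26 were higher than in BAT (background 13.0%). In all 4 comparisons 0 members were called lower in sWAT. The median differences at 6°C were 2.87 against mWAT and 4.32 against BAT, and at 28°C 4.06 against mWAT and 4.38 against BAT, with medians over all genes between -0.09 and 0.05. The comparisons share the sWAT arrays of a temperature. Members were chosen with earlier results of these data known, so the counts are a description and not an independent test.

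Csn3 and Btn1a1 were the milk protein genes called higher in sWAT against both pads at both temperatures. Csn3 in mWAT reached 3.88 to 7.79 and in BAT 2.86 to 9.06, far below sWAT. At 6°C it was higher in sWAT by 7.97 ± 1.29 than in mWAT (adjusted p = 7.26e-04) and by 7.63 ± 1.29 than in BAT (adjusted p = 3.87e-04), and at 28°C by 7.58 ± 1.29 than in mWAT and 6.96 ± 1.29 than in BAT (adjusted p = 0.00108 and 7.27e-04). Btn1a1 was higher in sWAT than in mWAT by 6.11 ± 0.48 at 6°C and 7.28 ± 0.48 at 28°C, and than in BAT by 5.33 ± 0.48 at 6°C and 6.57 ± 0.48 at 28°C. Csn1s2b was not called at 6°C, where it differed by 0.35 ± 0.29 from mWAT and 0.20 ± 0.29 from BAT (adjusted p = 0.536 and 0.625), and was higher in sWAT at 28°C, by 2.33 ± 0.29 than in mWAT and 1.91 ± 0.29 than in BAT (adjusted p = 8.23e-05 and 1.59e-04). Lalba was called at 28°C against mWAT, by 1.13 ± 0.24 (adjusted p = 0.00651), a call that was lost without any 1 of the 3 mWAT arrays at 28°C, without sWAT arrays 2 or 3 at 28°C and without BAT array 2 at 6°C. Csn2, Csn1s1 and Csn1s2a were called in none of the 4 comparisons, and Csn1s1 was called against mWAT at 28°C without sWAT array 1 at 28°C. Without that array Csn1s1 and Csn1s2a were also called against BAT at 28°C. At 6°C Csn2 differed by -1.31 ± 1.63 from mWAT and by -0.11 ± 1.63 from BAT.

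Foxa1 showed the largest difference of the luminal genes against mWAT. It was higher in sWAT by 7.96 ± 0.54 than in mWAT and by 7.20 ± 0.54 than in BAT at 6°C (adjusted p = 3.41e-07 and 5.73e-07), and by 7.82 ± 0.54 than in mWAT and 6.70 ± 0.54 than in BAT at 28°C (adjusted p = 2.84e-07 and 5.59e-07). Elf5 and Pgr were higher in sWAT in all 4 comparisons too, Elf5 by 4.32 to 6.65 and Pgr by 2.53 to 6.57. The call of Pgr against mWAT at 28°C was lost without sWAT arrays 1 or 3 or mWAT arrays 1 or 2 at 28°C. Ehf and Elf3 were called against BAT at both temperatures, and of the pair Elf3 was also called against mWAT. Ehf was higher in sWAT than in mWAT at 28°C by 4.74 with the probe set used (adjusted p = 0.0192). Its probe sets next in brightness passed the threshold there, by 3.21 and 3.48 (adjusted p = 3.38e-04 and 1.79e-04). The dimmest Ehf probe set differed by -0.20 (adjusted p = 0.786). The calls of Elf3 against BAT were lost without sWAT array 1 or BAT array 2 at 6°C, and without sWAT array 3 or BAT array 1 at 28°C. Esr1, which fat and stromal cells also express, was called in 1 of the 4, against BAT at 6°C, by 1.12 ± 0.22 (adjusted p = 0.00116).

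The luminal keratins divided the pads in another way. Krt7, Krt8, Krt18 and Krt19 were called higher in sWAT than in BAT at both temperatures, by 4.23 to 6.65, and were not called against mWAT. Yet Krt8 and Krt18 were higher in sWAT than in mWAT by 1.87 and 2.24 at 6°C and by 2.48 and 2.66 at 28°C. At each temperature every sWAT array lay above every mWAT array in both genes. Their SE was taken from a spread pooled over all 6 groups, and both were called against mWAT without BAT array 1 at 28°C. Krt7 and Krt19 differed less from mWAT, by 0.80 and 0.78 at 28°C. In mWAT, Krt19 was at 11.66 to 12.99, against 6.25 to 8.76 in BAT, and Krt18 was at 10.55 to 11.61, against 4.98 to 8.93 in BAT. Mesothelium, which covers mesenteric fat, also makes these keratins. A list of 8 mesothelial genes averaged 5.42 to 6.26 in sWAT arrays, 9.84 to 11.20 in mWAT arrays and 5.55 to 6.40 in BAT arrays, and 7 of the 8 were called lower in sWAT than in mWAT at 28°C, as were 4.82% of all genes. Among them Upk3b was at 4.84 to 5.6 in sWAT and 11.82 to 12.75 in mWAT. The part of mesothelium in the keratin values was not tested.

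The basal keratins were called higher in sWAT in all 4 comparisons. Krt5 was higher than in mWAT by 3.47 ± 0.24 at 6°C and 4.06 ± 0.24 at 28°C, and than in BAT by 2.61 ± 0.24 at 6°C and 3.10 ± 0.24 at 28°C. Krt14 was higher than in mWAT by 3.22 ± 0.42 at 6°C and 4.26 ± 0.42 at 28°C, and than in BAT by 4.75 ± 0.42 at 6°C and 5.24 ± 0.42 at 28°C. Both keratins are also made by skin. A list of 13 genes of epidermis and hair follicle averaged 5.59 to 5.99 in sWAT, 5.14 to 5.45 in mWAT and 5.38 to 5.56 in BAT. At 28°C, 1 of the 13 was called higher in sWAT than in mWAT (3.05% of all genes) and 2 than in BAT (13.0%). The part of skin in the keratin values was not tested. Of the shared genes, Esrp2 was called in 0 of the 4 comparisons with its brighter probe set, while its other probe set was higher in sWAT than in mWAT at 28°C by 3.12 (adjusted p = 5.32e-05). Against BAT at 28°C that other probe set differed by 0.88 and was not called (adjusted p = 0.0789). Trps1 was called against BAT and not against mWAT, where it was at 10.76 to 11.64. With its probe set next in brightness Trps1 was higher in sWAT than in mWAT at 28°C by 1.16 (adjusted p = 0.0017). Its remaining probe sets differed by 0.95 and 1.32 (adjusted p = 0.0192 and 0.0104).

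Cldn4 had the smallest errors of the shared genes that were called between pads. It was at 7.40 to 8.25 in sWAT, 2.79 to 3.60 in mWAT and 3.44 to 4.02 in BAT, a difference at 28°C of 4.62 ± 0.20 from mWAT (adjusted p = 5.65e-09) and 3.97 ± 0.20 from BAT (adjusted p = 1.36e-08). Tfap2c was higher in sWAT by 6.85 ± 0.60 and 5.96 ± 0.60 at 28°C, and Tfap2a by 6.40 ± 0.43 and 5.44 ± 0.43. No array of another pad reached the sWAT range in Tfap2a, Tfap2b, Tfap2c, Cldn4, Foxa1, Elf5 or Btn1a1.

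**Figure D4:**
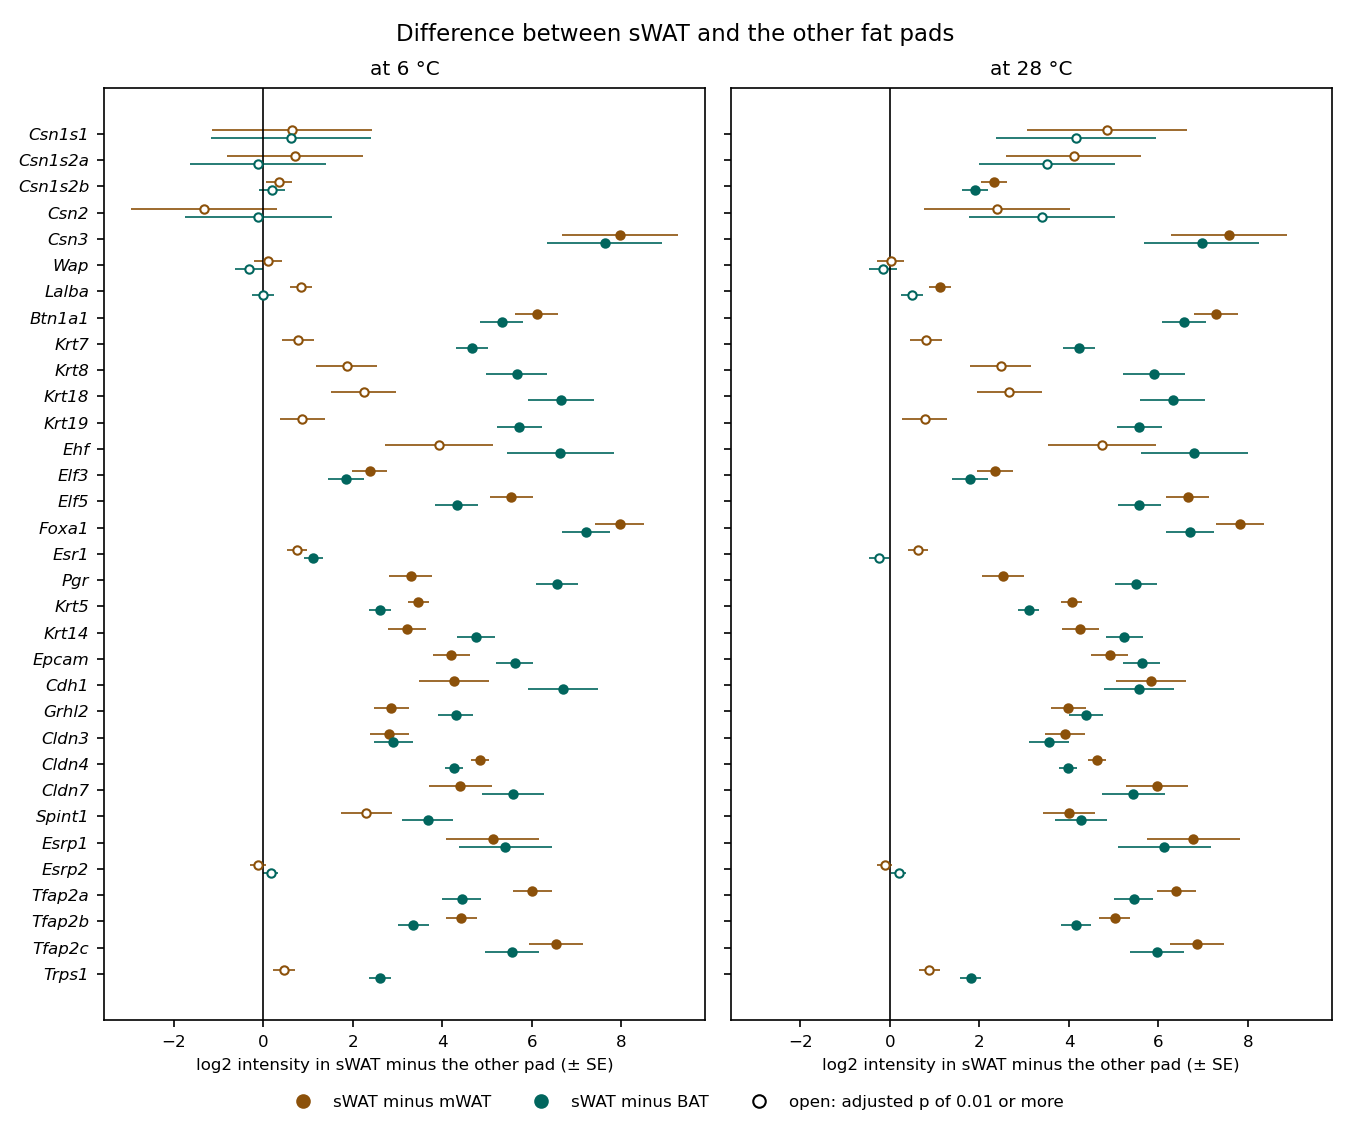
Log2 intensity in sWAT minus that in mWAT (brown) or BAT (green), ± SE (x axis), for the 33 genes (y axis) at 6°C (left panel) and 28°C (right panel); filled points had an adjusted p below 0.01. Csn3, Foxa1 and Tfap2c lie above 5 against both pads at both temperatures, while Wap and Esrp2 lie near 0.

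In mWAT at 6°C, 1 array stood apart in the shared epithelial genes. Array 2 had 9.45 for Cdh1, against 6.28 and 5.09 in the other arrays of its group, 8.96 for Esrp1, against 3.81 and 4.04, and 9.47 for Spint1, against 6.31 and 6.31. The same array averaged 14.05 over 6 genes of exocrine pancreas, against 5.22 and 4.50 in arrays 1 and 3. Pancreas genes were also raised in mWAT array 1 at 28°C (10.15) and BAT array 3 at 6°C (10.70), in which Cdh1 was 5.50 and 4.69. Without these 3 arrays, a setting chosen after the data were seen, 20 members were higher in sWAT than in mWAT at 6°C and 19 at 28°C, and 26 were higher than in BAT at each temperature. The call of Csn1s2b in sWAT was lost there (adjusted p = 0.0189), with the same change.

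**Figure D5:**
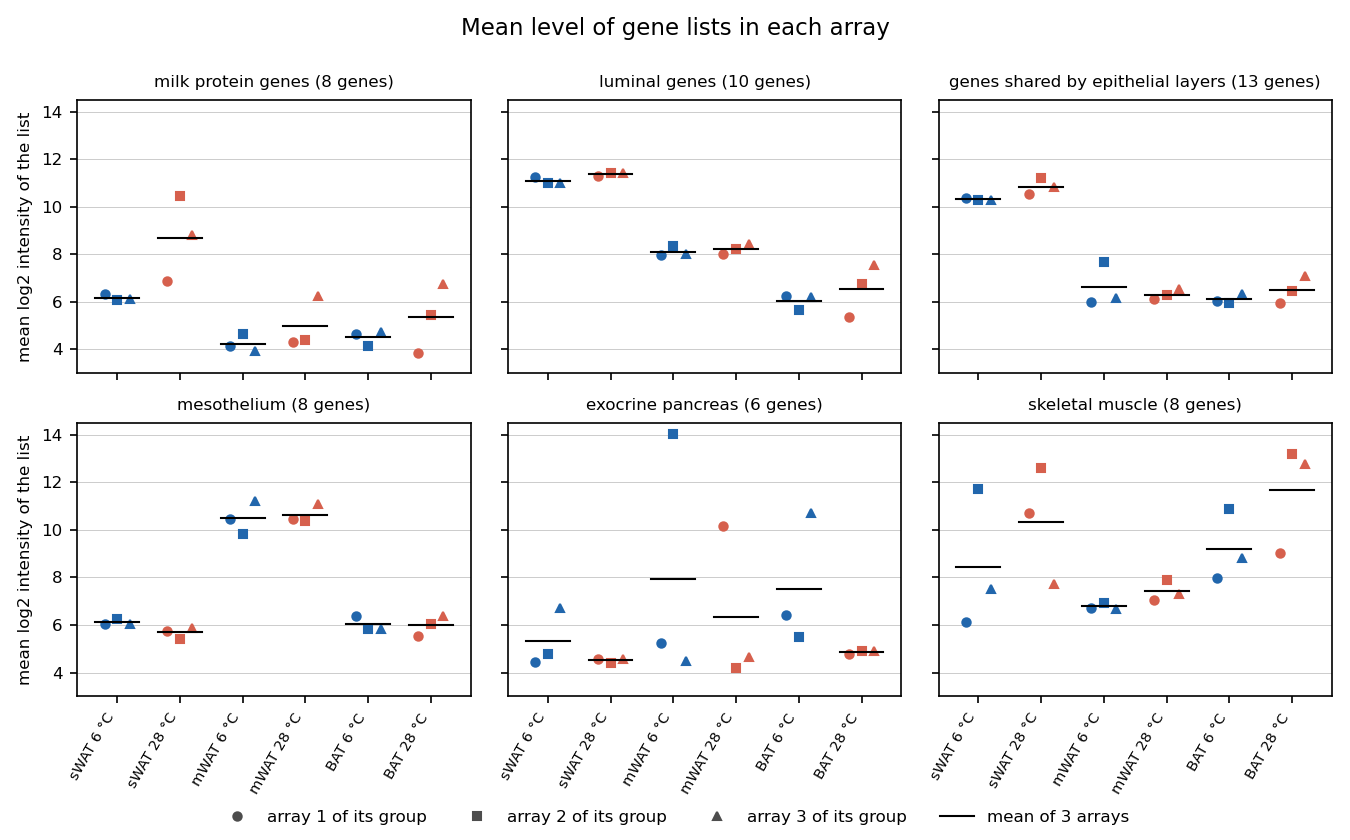
Mean log2 intensity (y axis) of the genes of 6 lists in each array, by fat pad and temperature (x axis); points are arrays and bars are means of 3. The luminal list stays between 10.99 and 11.41 in sWAT, the mesothelial list is high in mWAT, and the pancreas list peaks at 14.05 in mWAT array 2 at 6°C.

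Most further genes of the mammary gland had negative changes in sWAT, and 0 were called. Among 17 genes of milk secretion beyond the members 0 were called at 6 versus 28°C, 12 changes were negative and the median was -0.34. Muc15, a mucin of the milk fat globule, had 10.18, 9.37 and 10.41 at 6°C and 10.83, 12.96 and 11.81 at 28°C, a change of -1.88 ± 0.98 (adjusted p = 0.472). Cel, the bile salt-stimulated lipase that milk and pancreas both contain, had a difference of -1.60 ± 2.03 (adjusted p = 0.831). Both had every array at 6°C below those at 28°C.

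Of 14 genes of prolactin and STAT5 signalling 0 were called, 12 changes were negative and the median was -0.36. Tnfsf11, the RANK ligand that luminal cells release in response to progesterone, had 6.25, 7.21 and 7.73 at 6°C and 8.38, 11.92 and 6.90 at 28°C, a change of -2.01 ± 1.19 (adjusted p = 0.556). Cited1, a coactivator of the estrogen receptor, had 9.29, 8.49 and 8.17 at 6°C and 9.07, 10.71 and 10.20 at 28°C, a change of -1.34 ± 0.44 (adjusted p = 0.17). In both array 2 at 28°C was the highest of the 6 sWAT arrays, and the groups overlapped. Tnfsf11 was also high in mWAT, with 9.86, 9.72 and 6.84 at 6°C and 8.69, 9.01 and 6.80 at 28°C. At each temperature it was lowest there in array 3, the mWAT array with the lowest mean of lymphocyte genes. The part of lymphocytes in the values of Tnfsf11 was not tested.

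Of 16 further basal and myoepithelial genes 0 were called, 15 changes were negative and the median was -0.43. Trp63, the p63 factor that maintains basal cells, had 9.43, 8.85 and 9.40 at 6°C and 9.84, 10.74 and 10.03 at 28°C, a change of -0.98 ± 0.33 (adjusted p = 0.183). Lamb3, a laminin chain of the basement membrane, had a difference of -0.91 ± 0.35 (adjusted p = 0.282). Of 17 further luminal progenitor and hormone-sensing genes 0 were called, 16 changes were negative and the median was -0.58. The claudin Cldn8 had 7.11, 7.09 and 7.65 at 6°C and 8.30, 9.15 and 8.26 at 28°C, a change of -1.29 ± 0.81 (adjusted p = 0.591), and St14, matriptase, one of -0.91 ± 0.54 (adjusted p = 0.554). At 28°C, 11 of these 17 were called higher in sWAT than in mWAT (3.05% of all genes) and 15 of 17 than in BAT (13.0%). Of the 16 further basal and myoepithelial genes, 6 were called higher and 5 lower in sWAT than in mWAT at 28°C. Of all genes 4.82% were called lower there. Against BAT 11 of the 16 were called higher and 0 lower.

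Other lists were compared in sWAT at 6 versus 28°C in the same way. The median was -2.13 over 8 skeletal muscle genes, with Myh4 at -2.59 ± 1.73 and Ckm at -2.19 ± 1.5 (adjusted p = 0.617 and 0.632), and -0.31 over 6 lymphocyte genes. It was 0.34 over the mesothelial genes, 0.76 over the pancreas genes, 0.11 over 9 genes of intestinal epithelium and 0.01 over the epidermal genes, and 0 genes of these 6 lists were called. The median was -0.003 over 5 adipocyte genes, also with 0 called, and Adipoq, the adiponectin gene, differed by -0.03 ± 0.09. Of all genes 0.720% were called higher. Of 6 brown adipocyte genes 4 were called higher, among them Ucp1, the uncoupling protein, by 3.65 ± 0.29 (adjusted p = 4.26e-05), and Cox7a1, Ppara and Cidea by 3.18 ± 0.25, 3.01 ± 0.27 and 1.52 ± 0.24. Zic1, a marker of interscapular BAT, was at 2.81 to 3.74 in sWAT and 9.67 to 9.93 in BAT.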

How the data were processed

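RNA of sWAT, mWAT and BAT had been amplified, labelled with biotin and hybridized to Affymetrix mouse arrays, 3 for each pad and temperature. The deposited values are linear intensities, 1 per probe set and array, which the authors background adjusted, summarized and normalized with Bioconductor before deposit. Their algorithm was not given in the sources used here, and the methods and legends name different array types. Groups came from title, source name and description, which for most arrays contradict the tissue or temperature among the characteristics. The log2 of the deposited intensities was used as it stood, unfiltered. After 64 control probe sets were left out, 45037 were fitted in R 4.3.3 with limma 3.58.1, with 6 group means, 12 residual and 2.64 prior degrees of freedom, Benjamini-Hochberg adjustment and a threshold of 0.01, as in the methods. Of these, 34945 name 1 gene, 932 several and 9160 none in the platform annotation, and 18 of the 33 members had more than 1 probe set.

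Members and lists were chosen with earlier results of these data known. The 12 further lists held 132 genes, of which 125 were measured. All members are named, of each further list up to 4 called in sWAT at 6 versus 28°C or the 2 with the largest changes, and the neighbours of the caseins. Alternatives were an adjusted p of 0.05, a minimum change of 2-fold, fitting just the groups compared, quantile normalization, centring on array medians, leaving out probe sets that were not above the array median in 3 arrays (26189 kept), a variance trend with robust estimates, the mean of a gene's probe sets, and leaving out each array in turn. Tested on simulated data for sWAT at 6 versus 28°C over 45037 probe sets, the fit recovered 25.0% of 2-fold and 75.0% of 4-fold changes. Figures were drawn with matplotlib 3.10.9. Arrays of a group correlated at 0.951 to 0.990, and precision is limited by their number.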

Additional observations from a re-analysis of the deposited data

How the results depend on the processing

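Of the 9 counts of called members, 6 kept within 1.5 times their value under all alternatives. The count called higher in sWAT ran from 14 to 22 against mWAT and from 25 to 26 against BAT at 6°C, and from 18 to 25 against mWAT and from 24 to 28 against BAT at 28°C. In sWAT at 6 versus 28°C the 1 call, Csn1s2b, was lost (0 called) in a fit of the sWAT arrays alone (adjusted p = 0.130), with dim probe sets left out, which removes its probe set, and without the 3 arrays high in pancreas genes, and it ranged from 0 to 1 called when each array was left out. Its adjusted p ran from 0.0022 to 0.130. In BAT the count was 2 at an adjusted p of 0.05, 2 with dim probe sets left out, 2 with the variance trend and robust estimates, 0 with the BAT arrays alone, 0 without the arrays high in pancreas genes, and 0 to 2 when each array was left out (2 without mWAT array 3 at 28°C, where Esr1 was gained). The difference of cold responses between sWAT and BAT gave 1 call at an adjusted p of 0.05. The cause of these shifts was not tested.

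In sWAT, 27 of the 33 genes kept the sign of their change under every alternative, and 25 were lower at 6°C under all of them. Small changes that turned were those of Cldn4 under quantile normalization (0.0109) and centring (0.00298), and Esrp2 under quantile normalization (-0.0201) and with the mean of its probe sets (-0.17). When each array was left out in turn, the change ranged from -0.40 to 0.19 for Wap, -0.14 to 0.14 for Foxa1, -0.24 to 0.19 for Cldn4, -0.0615 to 0.0887 for Esrp2, -0.30 to 0.13 for Krt7 and -0.48 to 0.32 for Pgr. The table gives no detection values, so how far low probe sets rise above background is unknown.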

Other observations

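The genes with the widest spread among the sWAT arrays at 28°C included some that ran opposite to the caseins. They were named by their rank among all genes, after their values were seen, and no test was run. Of the 10 genes with the largest SD there, 3 were members (Csn1s1, Csn1s2a and Csn2). Dmbt1, a secreted scavenger receptor of mucosal surfaces, had 9.92, 10.74 and 9.66 in sWAT at 6°C and 11.99, 4.55 and 11.74 at 28°C. Ido1, which degrades tryptophan, had 11.41, 11.48 and 11.87 at 6°C and 12.17, 5.17 and 9.91 at 28°C. Aoc1, which breaks down polyamines and histamine, had 9.91, 10.83 and 10.51 at 6°C and 11.71, 4.42 and 9.26 at 28°C. In these 3 genes array 2 at 28°C, the array with the highest casein values, was the lowest of the 6 sWAT arrays. Sprr1a, a cornified envelope protein, and the serine protease Tmprss11a were also lowest in that array, at 5.12 and 3.04, against 9.24 to 10.24 and 7.43 to 8.16 in sWAT at 6°C. Outside sWAT, Ido1 was at 5.57 to 6.67 and Aoc1 at 3.80 to 6.08, while Dmbt1 was at 3.58 to 13.88, highest in mWAT array 2 at 6°C, the array highest in pancreas genes. Serpinb11 and Spink1, protease inhibitors, were high in sWAT array 2 at 28°C, at 9.92 and 9.72, against 2.82 to 4.84 and 3.65 to 4.97 in sWAT at 6°C. Spink1 was at 13.43 in mWAT array 2 at 6°C.

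Ltf, the milk iron-binding protein lactoferrin, is a milk secretion gene that went against the caseins, and it was picked after its values were seen. It had 11.77, 11.80 and 11.55 at 6°C and 11.55, 9.15 and 12.06 at 28°C in sWAT, a change of 0.79 ± 0.83 (adjusted p = 0.786 in limma), and its lowest sWAT value was in array 2 at 28°C. Wfdc18, a whey-type protease inhibitor also picked afterwards, had 5.94, 7.01 and 10.43 in mWAT and 4.54, 8.88 and 11.55 in BAT at 28°C, highest in array 3 of each pad.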
